A study of Mus musculus with 8 samples.

Results

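Interferon-stimulated genes are the genes that cells switch on when interferon reaches them. They were followed here in livers lacking Xbp1 and in their flox controls, on a high-fat diet and on chow. Of 34 named genes, taken by their symbol, 33 had a row among the 23179 rows of the deposited tables, and 32 reached 1 RPKM (reads per length of transcript and size of library) in at least 1 group. Ifi27 had no row under that symbol, and Mx1 stayed below 1 RPKM in all groups. The list was split by the interferon class that mainly drives each gene, with 23 genes as type 1 targets and 11 as type 2 targets, although many of them respond to both classes.

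The labels describe 4 groups of C57BL/6 mice. Mice with a deletion of Xbp1 in the liver (genotype Xbp1-/-) and mice with the undeleted allele (genotype Xbp1flox) ate for 4 weeks either a high-fat diet supplemented to match high-fructose corn syrup or regular chow. The 4 mice of a group were pooled into 2 libraries, and the tables hold 1 value per gene and group, so no difference below has a replicate check, a standard deviation or a p-value. The sources used here do not give the driver of the deletion, or the age and sex of the mice. The labels list no interferon treatment or infection in any group.

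Type 1 interferons signal through the IFNAR receptor and the kinases JAK1 and TYK2 to a complex that contains STAT2 and IRF9 and binds the interferon-stimulated response element (ISRE). Type 2 interferon, interferon gamma, signals through its own receptor to genes with the gamma-activated sequence (GAS), among them Irf1, whose product in turn acts on ISRE-like sites. In liver, hepatocytes as well as Kupffer cells, endothelial cells and lymphocytes respond to both classes, and a whole-liver value adds them up. Fewer cells of a type and less RNA per cell cannot be told apart in such values.

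The promoter sequences below show where the motifs of both classes occur in the members. RefSeq promoter windows on GRCm38.p6, the assembly that mm10 denotes, were found for 25 of the 34 members, and the 250 bases before each annotated start were searched on both strands for an ISRE core of 2 GAAA runs with any 2 bases between them (TTTC runs on the other strand) and for the GAS motif TTCNNNGAA, which reads the same on both strands. An ISRE match lay in 13 of 25 members (52.0%), against 3.46% of 27025 genes in the table. A GAS match lay in 7 of 25 members (28.0%), against 8.13% of all genes. Among type 1 members 7 of 17 had an ISRE match and 3 had a GAS match. Among type 2 members 6 of 8 had an ISRE match and 4 had a GAS match. Both motifs thus occurred in members of both classes. A match is a run of letters and not a measured binding site. Shown are the 150 bases before the start, 5′ to 3′ on the gene's strand, for 4 type 1 and 4 type 2 members whose values are described below, with every ISRE or GAS match in capitals.
Isg15: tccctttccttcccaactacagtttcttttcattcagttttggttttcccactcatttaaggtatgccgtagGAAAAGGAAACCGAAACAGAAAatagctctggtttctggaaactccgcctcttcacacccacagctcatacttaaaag
Ifit1: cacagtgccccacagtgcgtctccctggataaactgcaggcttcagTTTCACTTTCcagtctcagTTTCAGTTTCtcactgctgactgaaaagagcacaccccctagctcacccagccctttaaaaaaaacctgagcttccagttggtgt
Oas1a: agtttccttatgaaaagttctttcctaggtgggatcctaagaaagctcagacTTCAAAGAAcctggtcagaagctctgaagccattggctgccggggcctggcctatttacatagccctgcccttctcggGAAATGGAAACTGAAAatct
Bst2: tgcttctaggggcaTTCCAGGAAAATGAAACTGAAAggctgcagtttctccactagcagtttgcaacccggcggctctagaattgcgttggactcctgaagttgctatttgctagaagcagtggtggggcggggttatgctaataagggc
Irf1: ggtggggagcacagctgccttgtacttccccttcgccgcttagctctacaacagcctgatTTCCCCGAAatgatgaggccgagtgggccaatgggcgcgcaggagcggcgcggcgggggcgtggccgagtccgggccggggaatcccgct
Gbp2: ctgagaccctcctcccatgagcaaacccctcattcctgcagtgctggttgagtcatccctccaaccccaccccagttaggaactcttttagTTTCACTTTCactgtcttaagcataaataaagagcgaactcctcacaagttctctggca
Igtp: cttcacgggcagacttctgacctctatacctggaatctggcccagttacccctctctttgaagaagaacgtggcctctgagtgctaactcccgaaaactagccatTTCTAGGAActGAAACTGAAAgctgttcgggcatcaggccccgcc
Irgm2: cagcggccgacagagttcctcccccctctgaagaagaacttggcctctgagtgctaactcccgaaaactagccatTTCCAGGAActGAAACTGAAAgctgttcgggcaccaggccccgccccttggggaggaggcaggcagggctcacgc

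These windows lie at chr4:156200819-156200968 on the minus strand for Isg15, chr19:34640739-34640888 on the plus strand for Ifit1, chr5:120907526-120907675 on the minus strand for Oas1a and chr8:71537473-71537622 on the minus strand for Bst2. They lie at chr11:53769864-53770013 for Irf1, chr3:142620513-142620662 for Gbp2, chr11:58199406-58199555 for Igtp and chr11:58214827-58214976 for Irgm2, all on the plus strand. Isg15 carried 3 overlapping ISRE matches between 78 and 57 bases before its start. In Bst2 a GAS match starting 136 bases before the start overlapped the first of its 2 ISRE matches. Irf1 held a GAS match, 90 to 82 bases before the start, and no ISRE match in this window. Igtp and Irgm2 are neighbours on chromosome 11, and each held a GAS match followed by an ISRE match, and their windows shared a longest run of 38 identical bases. The members with an ISRE match and those without one had similar medians in knockout against flox livers on the high-fat diet, at a log2 change of 0.04 (13 members) and 0.05 (12 members).

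Some facts of the whole series bear on these values. Xbp1 was listed at 34.1 RPKM in knockout high fat and 90.7 RPKM in flox high fat, and at 44.2 RPKM in knockout chow and 112 RPKM in flox chow. The deposited values summed to between 367414 RPKM (knockout high fat) and 513694 RPKM (flox chow), the read depth is unknown, and an exact 0 may be a failed estimate, since even Alb (albumin) carried a 0 throughout. The 10 hepatocyte markers, Alb included, summed to 12557 RPKM in knockout high fat and 23027 RPKM in flox high fat. On chow they summed to 15335 RPKM in knockout and 24643 RPKM in flox livers. Serpina1a, one of them, was at exactly 0 in some groups but not in all, so these sums do not cover the same genes in each group. The part of these markers in the results was not tested. Changes are log2((a + 1)/(b + 1)) of the RPKM values a and b, which understates the change of genes near 1 RPKM, and a gene was called risen or fallen at a 2-fold change on that scale. The median of all genes was a log2 change of -0.13 for knockout against flox on the high-fat diet and -0.02 on chow, and -0.11 for the high-fat diet against chow in knockout and -0.01 in flox livers.

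In knockout against flox livers, 1 of the 32 measured interferon-stimulated genes passed 2-fold on the high-fat diet and 0 on chow. Usp18 rose on the high-fat diet, where 1.07% of 10327 genes rose and 1.86% fell, and 0 members fell. On chow 1.62% of 10322 genes passed 2-fold in either direction. A lower limit of 1.5-fold added 1 member on the high-fat diet, Bst2, which was lower in knockout livers, where 3.20% of all genes were up and 8.33% down by that limit. On chow it added none, where 4.93% of all genes passed it.

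**Figure D1:**
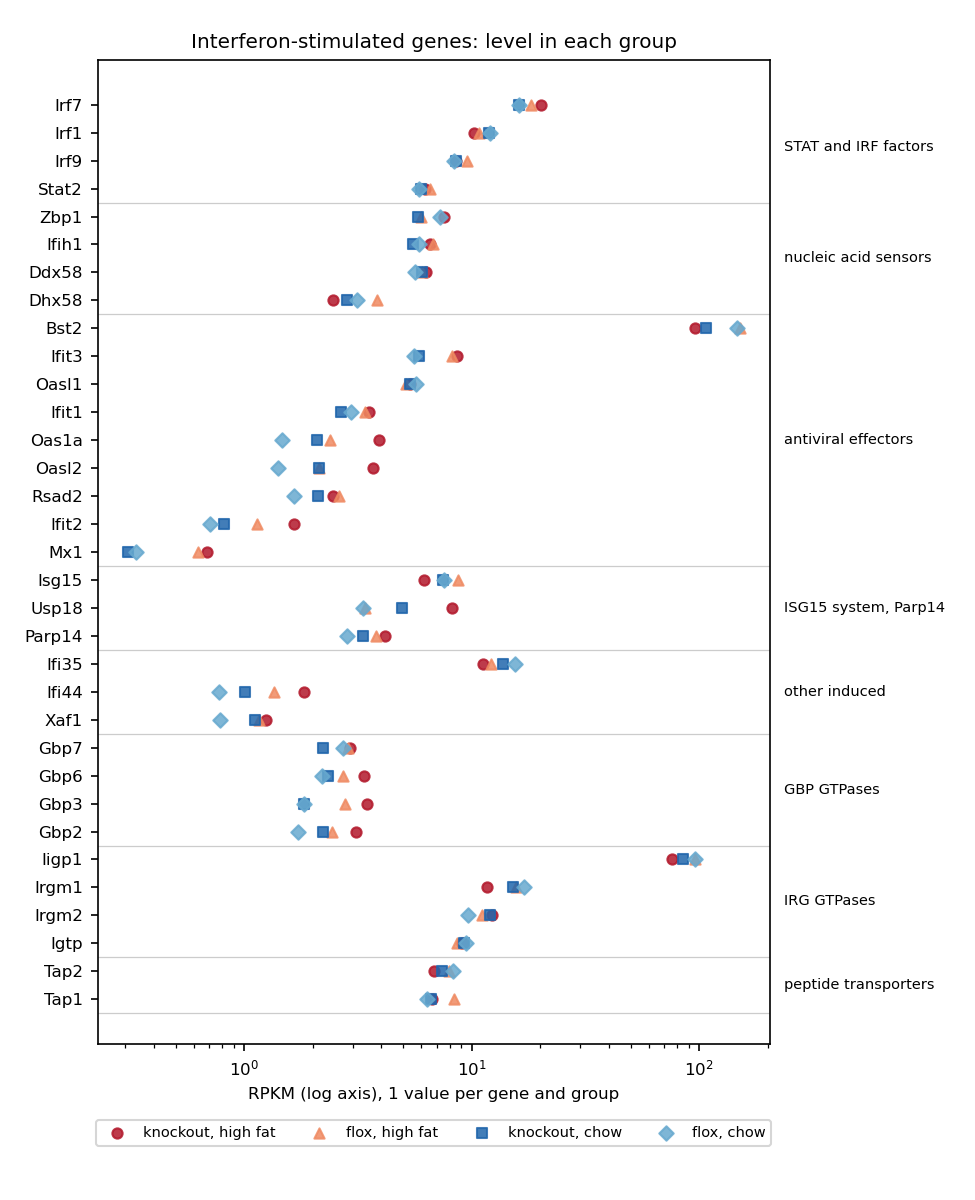
RPKM on a log axis for the 33 members with a row, ordered by role, with 1 point for each of the 4 groups and no error, since each group has 1 deposited value. Bst2 and Iigp1 stand at 76.2 to 150 RPKM in all 4 groups, well above the other members, and Usp18 in knockout high fat stands apart from its other 3 points.

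Usp18 encodes the protease that removes ISG15 from proteins and that also dampens signalling at the type 1 interferon receptor. It was listed at 8.17 RPKM in knockout high fat and 3.40 RPKM in flox high fat, and at 4.92 RPKM in knockout chow and 3.32 RPKM in flox chow. Both knockout groups were above both flox groups, and the flox groups lay close together. The ratio of knockout to flox was 2.40 on the high-fat diet (log2 change 1.06) and 1.48 on chow (log2 change 0.45), and the difference of these log2 changes was 0.61. For that difference 0 of 32 members passed 2-fold, where 1.23% of 10319 genes did, and Usp18 was the 1 member up by 1.5-fold, where 2.32% of genes were. Usp18 overlaps the RefSeq gene Gm44148. It is 1 of 8 members that overlap another RefSeq gene, among them Stat2 (with Apof) and Ifit1 (with Ifit1bl1). The strand setting of the counting was not stated. With a pseudocount of 5 RPKM in place of 1, Usp18 no longer passed. Isg15, the ubiquitin-like protein that Usp18 removes, was listed at 6.18 RPKM in knockout high fat and 8.72 RPKM in flox high fat, and at 7.44 RPKM in knockout chow and 7.55 RPKM in flox chow. As deposited, it was lowest in the group in which Usp18 was highest; after rescaling without the 50 most abundant genes it was no longer lower there than in knockout chow. Parp14, an ADP-ribosyltransferase, had 4.15 RPKM in knockout high fat and 3.80 RPKM in flox high fat, and 3.32 RPKM in knockout chow and 2.84 RPKM in flox chow, with the higher value in knockout on both diets.

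The transcription factors of the pathway stayed within narrow ranges. Stat2, a factor of type 1 signalling, had 6.21 RPKM in knockout high fat and 6.53 RPKM in flox high fat, and 6.00 RPKM in knockout chow and 5.87 RPKM in flox chow. Irf9, the DNA-binding subunit of the same complex, had 8.51 RPKM in knockout high fat and 9.51 RPKM in flox high fat, and 8.49 RPKM in knockout chow and 8.35 RPKM in flox chow. As deposited, flox high fat was the highest and flox chow the lowest group for both genes, but after either rescaling both were higher in knockout high fat than in flox high fat. Irf7, which amplifies type 1 interferon production, had 20.1 RPKM in knockout high fat and 18.3 RPKM in flox high fat, and 16.1 RPKM in both chow groups. Irf1, the factor that mediates much of the type 2 response, had 10.3 RPKM in knockout high fat and 10.8 RPKM in flox high fat, and 11.9 RPKM in knockout chow and 12.0 RPKM in flox chow. Irf7 was higher and Irf1 lower on the high-fat diet in both genotypes, with log2 changes of 0.30 and -0.19 in knockout livers and of 0.18 and -0.15 in flox livers. The direction of Irf1 in knockout livers turned after rescaling without the 50 most abundant genes.

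The nucleic acid sensors Ifih1 (MDA5) and Ddx58 (RIG-I), which detect viral RNA in the cytosol, had knockout to flox log2 changes of -0.04 and 0.05 on the high-fat diet, and -0.08 and 0.08 on chow; the values of Ifih1 turned positive after rescaling without the 50 most abundant genes. Dhx58 (LGP2), a relative of both that lacks their signalling domain, had 2.47 RPKM in knockout high fat and 3.82 RPKM in flox high fat, and 2.83 RPKM in knockout chow and 3.13 RPKM in flox chow. The knockout groups were the lower on both diets, with a log2 change of -0.47 on the high-fat diet and -0.11 on chow, and the chow value turned to 0.00 after rescaling without the 50 most abundant genes. Zbp1, a sensor of Z-form nucleic acids that can trigger cell death, had 7.57 RPKM in knockout high fat and 5.98 RPKM in flox high fat, and 5.80 RPKM in knockout chow and 7.27 RPKM in flox chow. Its genotype difference had opposite signs on the 2 diets, with log2 changes of 0.29 and -0.28, both far below the limit.

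Among the antiviral effectors, Bst2 was lower in knockout livers, and 2 genes of the 2'-5'-oligoadenylate synthetase family stood highest above flox. Oas1a, whose product makes the messenger that activates RNase L, had 3.90 RPKM in knockout high fat and 2.39 RPKM in flox high fat, and 2.09 RPKM in knockout chow and 1.47 RPKM in flox chow. Oasl2, an OAS-like gene, had 3.70 RPKM in knockout high fat and 2.13 RPKM in flox high fat, and 2.13 RPKM in knockout chow and 1.41 RPKM in flox chow. Both genes had the highest value in knockout high fat and the lowest in flox chow, and their knockout to flox log2 changes were 0.53 and 0.58 on the high-fat diet and 0.32 and 0.38 on chow. The related Oasl1 did not share this order, with 5.35 RPKM in knockout high fat and 5.15 RPKM in flox high fat, and 5.37 RPKM in knockout chow and 5.71 RPKM in flox chow. Oas1a has close copies in its gene cluster, so reads may have been shared between them.

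The Ifit genes, whose products bind foreign RNA, form a cluster on chromosome 19 and followed the diet more than the genotype. Ifit3 had 8.62 RPKM in knockout high fat and 8.15 RPKM in flox high fat, and 5.84 RPKM in knockout chow and 5.57 RPKM in flox chow. Ifit1 had 3.52 RPKM in knockout high fat and 3.41 RPKM in flox high fat, and 2.66 RPKM in knockout chow and 2.93 RPKM in flox chow. Ifit2 had 1.65 RPKM in knockout high fat and 1.14 RPKM in flox high fat, and 0.815 RPKM in knockout chow and 0.707 RPKM in flox chow. Both high-fat groups were above both chow groups for each of these genes. Mx1, a dynamin-like GTPase that is defective in many laboratory strains, likewise stood higher in both high-fat groups, at a level too low for the calls, with 0.684 RPKM in knockout high fat and 0.625 RPKM in flox high fat, and 0.308 RPKM in knockout chow and 0.336 RPKM in flox chow. Rsad2 (viperin) had 2.45 RPKM in knockout high fat and 2.60 RPKM in flox high fat, and 2.12 RPKM in knockout chow and 1.66 RPKM in flox chow.

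Bst2, or tetherin, holds budding virus particles at the cell surface and was the most abundant member. It had 95.6 RPKM in knockout high fat and 150 RPKM in flox high fat, and 107 RPKM in knockout chow and 146 RPKM in flox chow. Both knockout groups were below both flox groups, at 63.5% of flox on the high-fat diet (log2 change -0.65) and 73.6% on chow (log2 change -0.44), and neither passed 2-fold. Rescaling without the 50 most abundant genes left values of -0.35 and -0.29. Bst2 and Iigp1 together held 47.5% of the summed RPKM of the members in knockout high fat and 56.9% in flox high fat, and 52.4% in knockout chow and 58.1% in flox chow. The other 31 members summed to 190 RPKM in knockout high fat and 186 RPKM in flox high fat, and to 175 RPKM in knockout chow and 174 RPKM in flox chow.

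**Figure D2:**
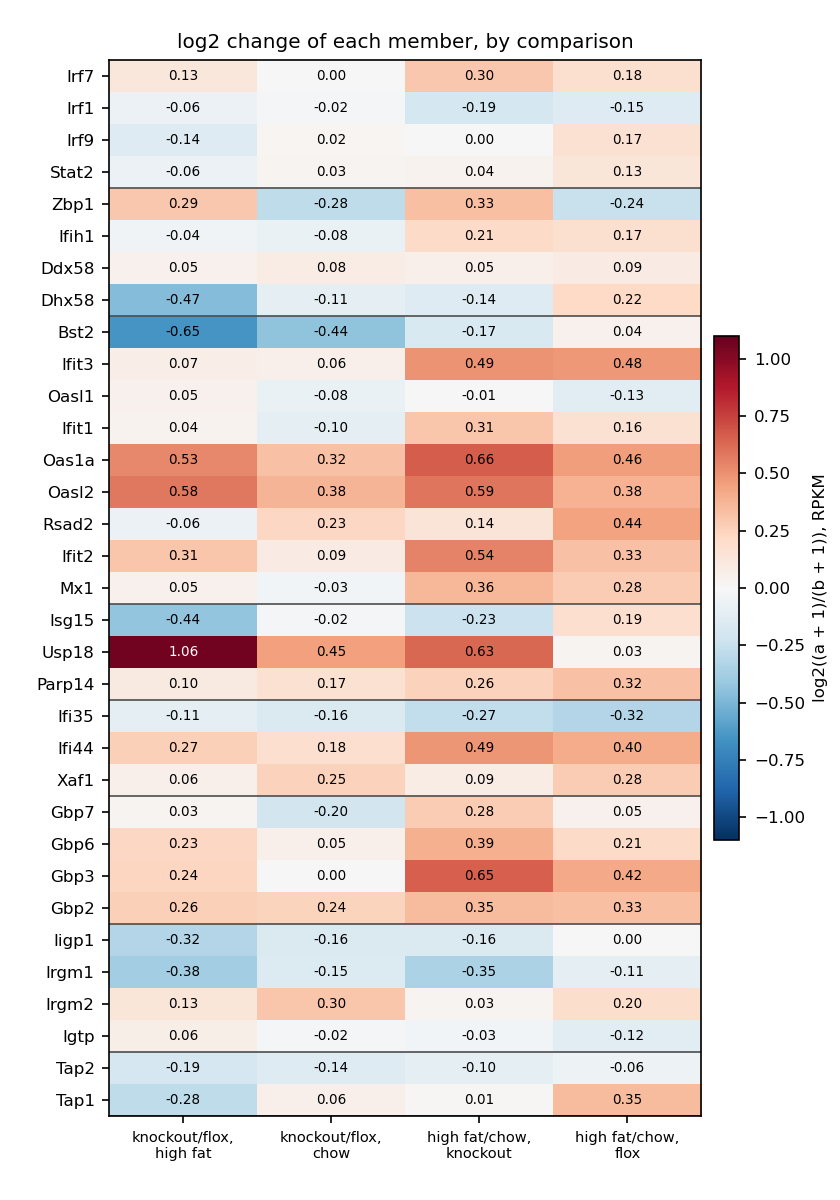
Heat map of the log2 change of each of the 33 members (rows, by role) in the 4 comparisons (columns), with the value printed in each cell and red for higher in the first-named group. The cell of Usp18 in knockout against flox on the high-fat diet, 1.06, is the one past 1, and Bst2 at -0.65 in the same column is the lowest value.

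The guanylate-binding proteins (GBP) and the immunity-related GTPases (IRG) are the textbook targets of interferon gamma and attack the vacuoles of intracellular pathogens. The 4 GBP members were low and close to each other, between 1.72 and 3.45 RPKM. Gbp3 had 3.45 RPKM in knockout high fat and 2.77 RPKM in flox high fat, and 1.83 RPKM in knockout chow and 1.83 RPKM in flox chow. Gbp2 had 3.11 RPKM in knockout high fat and 2.42 RPKM in flox high fat, and 2.22 RPKM in knockout chow and 1.72 RPKM in flox chow. All 4, with Gbp6 and Gbp7, were highest in knockout high fat, also after either rescaling, but GBP genes share sequence, and reads may have been split between copies.

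The 4 IRG members did not follow the GBP genes. Iigp1 had 76.2 RPKM in knockout high fat and 95.5 RPKM in flox high fat, and 85.1 RPKM in knockout chow and 95.3 RPKM in flox chow. Irgm1, which regulates the other IRG proteins, had 11.7 RPKM in knockout high fat and 15.6 RPKM in flox high fat, and 15.2 RPKM in knockout chow and 16.9 RPKM in flox chow. Both genes were lowest in knockout high fat, with knockout to flox log2 changes of -0.32 and -0.38 on the high-fat diet and -0.16 and -0.15 on chow. After rescaling without the 50 most abundant genes these were -0.02 and -0.10 on the high-fat diet and -0.01 for both on chow, and Iigp1 was then no longer lower in knockout high fat than in knockout chow, under either rescaling. Irgm2 and Igtp, whose promoters are printed above, had 12.3 and 9.01 RPKM in knockout high fat, 11.1 and 8.60 RPKM in flox high fat, 12.1 and 9.22 RPKM in knockout chow, and 9.59 and 9.39 RPKM in flox chow. Irgm2 was higher in the knockout group on both diets, and the largest of the 4 changes of Igtp was a log2 change of -0.12, for the high-fat diet against chow in flox livers, which turned to 0.00 after rescaling without the 50 most abundant genes.

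Of the remaining type 1 members, Ifi44 had 1.82 RPKM in knockout high fat and 1.35 RPKM in flox high fat, and 1.01 RPKM in knockout chow and 0.774 RPKM in flox chow. Xaf1, which encodes a pro-apoptotic factor, had 1.25 RPKM in knockout high fat and 1.16 RPKM in flox high fat, and 1.12 RPKM in knockout chow and 0.781 RPKM in flox chow. Both were lowest in flox chow. Ifi35 ran the other way, with 11.2 RPKM in knockout high fat and 12.1 RPKM in flox high fat, and 13.7 RPKM in knockout chow and 15.4 RPKM in flox chow, the highest in flox chow.

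Type 1 and type 2 targets differed little between genotypes. In knockout against flox livers on the high-fat diet the median log2 change was 0.05 over 21 type 1 targets and 0.03 over 11 type 2 targets, beside -0.13 over all genes. On chow the medians were 0.03 and -0.02, beside -0.02 over all genes. Of all 32 members, 19 were higher in the knockout group on the high-fat diet, where 29.9% of all genes were higher, and 18 on chow, where 45.8% were. Rescaling to a median ratio of 0 raised the first count to 25, where 5616 of 10429 genes were higher, and the second to 21, where 5625 of 10424 were. The balance of directions thus depends on the scaling, for the members and for all genes. On the high-fat diet the median of the members stayed above that of all genes, at 0.19 beside 0.02 after this rescaling and 0.05 beside -0.13 as deposited.

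**Figure D3:**
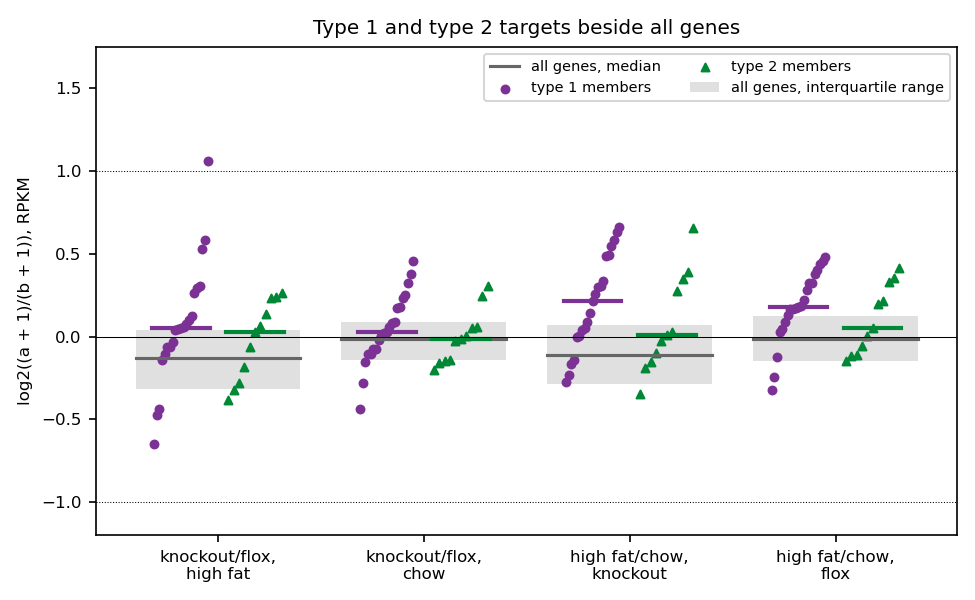
Log2 change of each type 1 target (21 circles) and type 2 target (11 triangles) that reached 1 RPKM, with a coloured line at each median, in the 4 comparisons; the grey box holds the interquartile range of all genes with a grey line at their median, and dotted lines mark 2-fold. Type 1 medians stand at 0.05, 0.03, 0.21 and 0.18 from left to right and type 2 medians at 0.03, -0.02, 0.01 and 0.05.

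Between the diets, the interferon-stimulated members tended to stand higher on the high-fat diet, by less than 2-fold in each of the 32 measured. Of these 32, 22 were higher on that diet in knockout livers, where 33.6% of all genes were, and 25 in flox livers, where 47.5% were. In knockout livers 0 of 32 members passed 2-fold, where 1.46% of 10328 genes did, and in flox livers 0 of 32, where 0.639% of 10322 genes did. At 1.5-fold, 4 members passed in knockout livers, all higher on the high-fat diet (Oas1a at a log2 change of 0.66, Gbp3 at 0.65, Usp18 at 0.63 and Oasl2 at 0.59), where 2.68% of all genes were up by that limit. In flox livers 0 members passed 1.5-fold, where 2.91% of all genes did. The 2 diet comparisons use different libraries, and 22 of 33 members were higher on the high-fat diet in both genotypes, while 6 were lower in both; over all genes these shares were 25.1% and 43.9%. The order knockout high fat, flox high fat, knockout chow, flox chow, from high to low, held as deposited for 12 of the 33 members, and with 1 value per group it is unknown which neighbours in it differ beyond their spread. The share of all genes in this order and the count after rescaling were not determined, so the count of members alone says little.

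The type 1 targets carried more of this diet difference than the type 2 targets. In knockout livers the median log2 change on the high-fat diet was 0.21 over type 1 and 0.01 over type 2 targets, beside -0.11 over all genes. In flox livers it was 0.18 over type 1 and 0.05 over type 2 targets, beside -0.01 over all genes. Level moves with this split. Grouped after the values were seen, the members with a mean below 5 RPKM comprised 10 type 1 and 4 type 2 targets, whose medians were close, at 0.40 and 0.37 in knockout livers and 0.32 and 0.27 in flox livers, beside 0.00 and 0.04 over all genes of that level. All 14 of these members were higher on the high-fat diet in flox livers, where 58.2% of all genes of that level were. In knockout livers 13 were higher, where 49.7% of all genes of that level were. Both member counts stayed the same after rescaling to a median ratio of 0. Among members with a mean of 5 to 20 RPKM the medians were 0.05 over 10 type 1 and -0.06 over 6 type 2 targets in knockout livers, and 0.15 and -0.08 in flox livers.

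The genes around the pathway were counted against the shares over all genes, of which 2.93% passed 2-fold between genotypes on the high-fat diet, 1.62% on chow, 1.46% between diets in knockout and 0.639% in flox livers. In lists as short as these, counts of 0 or 1 are near those shares and say little about the genes. Of 11 interferon genes with a row, 9 were listed at 0 in all 4 groups, and Ifng and Ifnk did not exceed 0.060 RPKM in any group. Of 9 receptor and kinase genes past 1 RPKM, 0 passed 2-fold in any comparison. In knockout against flox livers on the high-fat diet 2 of the 9 were up by 1.5-fold, where 3.20% of all genes were. The largest log2 change among them was 0.65. Ifngr1, the ligand-binding chain of the interferon gamma receptor, had 12.0 RPKM in knockout high fat and 7.68 RPKM in flox high fat, and 8.12 RPKM in knockout chow and 8.29 RPKM in flox chow. It was highest in knockout high fat, with a log2 change of 0.59 on that diet. Ifnar2, a chain of the type 1 receptor, had 56.8 RPKM in knockout high fat and 72.4 RPKM in flox high fat, and 71.3 RPKM in knockout chow and 94.3 RPKM in flox chow, and was lower in knockout on both diets, with log2 changes of -0.34 and -0.40.

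Among 13 genes of nucleic acid sensing and its signalling past 1 RPKM, Ikbke, a kinase that activates IRF3, fell on chow, to 1.5 RPKM in knockout livers, against 4.26 RPKM in flox livers (log2 change -1.08); on the high-fat diet it had 2.01 RPKM in knockout and 4.31 RPKM in flox livers (log2 change -0.82). The chow call was lost after rescaling without the 50 most abundant genes. Of 7 negative regulators, 0 passed 2-fold, and Irf2, which competes with IRF1 for its sites, had 14.9 RPKM in knockout high fat and 28.9 RPKM in flox high fat (log2 change -0.91), and 19.5 RPKM in knockout chow and 23.4 RPKM in flox chow.

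Other interferon-stimulated genes, not members, were counted in the same way. Of 32 further type 1 targets, 0 passed 2-fold in any of the 4 comparisons, with medians for knockout against flox of 0.08 on the high-fat diet and 0.09 on chow. Ifi27l2a had 46.7 RPKM in knockout high fat and 24.6 RPKM in flox high fat, and 24.5 RPKM in knockout chow and 22.3 RPKM in flox chow. It was highest in knockout high fat, at a log2 change of 0.90 against flox, which passed 2-fold after either rescaling. Of 16 further type 2 targets, 1 passed 2-fold, between the diets in knockout livers, where 1.46% of all genes did. For the high-fat diet against chow, the medians over the further type 1 targets were 0.16 in knockout and 0.15 in flox livers. Those over the further type 2 targets were -0.002 and -0.08, so these did not stand higher on the high-fat diet. Gbp11 fell with the high-fat diet in knockout livers, to 1.28 RPKM, against 4.27 RPKM on chow (log2 change -1.21), and in flox livers it had 1.59 RPKM on the high-fat diet and 3.21 RPKM on chow (log2 change -0.70). Its direction was opposite to that of the 4 GBP members.

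Antigen presentation on MHC class I is a further textbook interferon target. In the deposited values most of its genes stood lower in knockout livers on both diets. On the high-fat diet 4 of 14 outside the members did so by 1.5-fold, where 860 of 10327 genes (8.33%) did. On chow 6 of 14 did, where 396 of 10322 genes did. Tap1 and Tap2 form the transporter that carries peptides into the endoplasmic reticulum. Tap1 had 6.69 RPKM in knockout high fat and 8.36 RPKM in flox high fat, and 6.63 RPKM in knockout chow and 6.34 RPKM in flox chow. Tap2 had 6.85 RPKM in knockout high fat and 7.93 RPKM in flox high fat, and 7.41 RPKM in knockout chow and 8.29 RPKM in flox chow. As deposited, Tap2 was lower in knockout on both diets and Tap1 on the high-fat diet, and the direction of Tap2 on the high-fat diet turned after rescaling without the 50 most abundant genes. Tapbp, or tapasin, which bridges that transporter and the class I molecule, fell on chow, to 12.9 RPKM in knockout livers, against 30.5 RPKM in flox livers (log2 change -1.18), and had 14.8 RPKM in knockout and 24.6 RPKM in flox livers on the high-fat diet (log2 change -0.70).

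Of 14 MHC class I pathway genes, 3 fell on chow and 0 rose, namely Tapbp, H2-T23 (log2 change -1.16) and H2-Q7 (-1.02), where 1.37% of all genes fell, and 0 passed 2-fold on the high-fat diet. H2-Q7 missed the limit after either rescaling. All 14 were lower in the knockout group on both diets (median log2 change -0.45 on the high-fat diet and -0.53 on chow). Of all genes, 7236 of 10327 were lower on the high-fat diet (median -0.13) and 5597 of 10322 on chow (median -0.02). Of the 14, 4 on the high-fat diet and 3 on chow turned positive after rescaling without the 50 most abundant genes. The list includes Calr, Canx and Pdia3, which are general folding factors of the endoplasmic reticulum, and its H2 genes are similar enough to share reads. B2m, the light chain common to class I molecules, had 2553 RPKM in knockout high fat and 3720 RPKM in flox high fat, and 2598 RPKM in knockout chow and 4494 RPKM in flox chow.

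**Figure D4:**
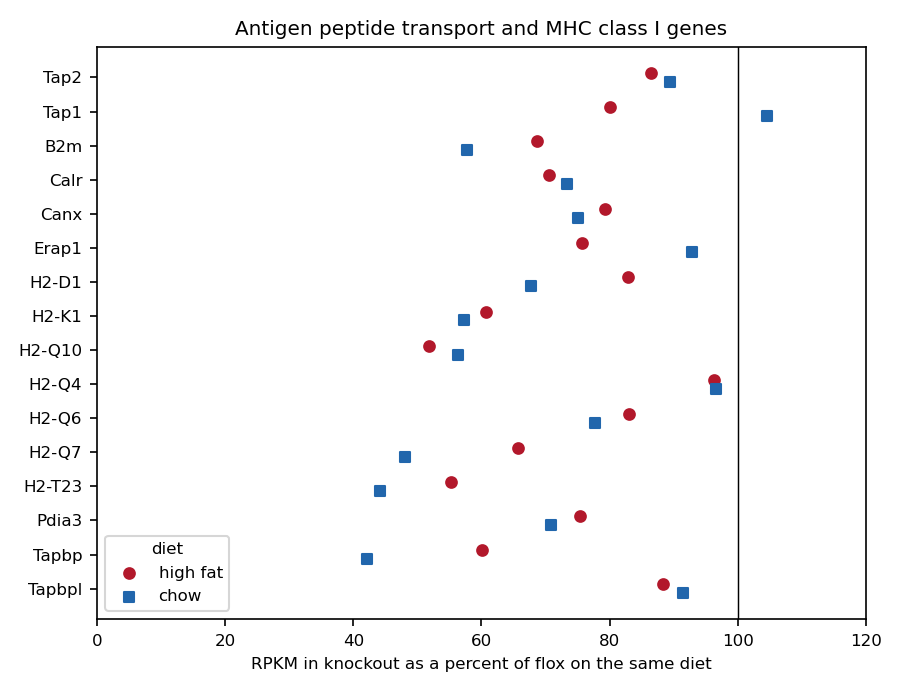
RPKM in knockout livers as a percent of flox livers on the same diet, for Tap1, Tap2 and the 14 MHC class I pathway genes, with circles for the high-fat diet and squares for chow and a line at 100%. Tapbp, H2-T23 and H2-Q7 stand lowest on chow, at 42.2%, 44.1% and 48.1%, and Tap1 on chow is the 1 point above 100%.

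As deposited, markers of several other cell types, but not endothelial ones, summed highest in knockout high fat, and their part in the results was not tested. Macrophage markers (13 of 14 with a row) summed to 463 RPKM in knockout high fat and 337 RPKM in flox high fat, and to 284 RPKM in knockout chow and 294 RPKM in flox chow, and all 13 were higher in knockout high fat than in flox high fat and than in knockout chow, as deposited and after either rescaling. Over all genes as deposited, 29.9% were higher in the first of these comparisons and 33.6% in the second. MHC class II genes, which mark antigen-presenting cells, summed to 170 RPKM in knockout high fat and 106 RPKM in flox high fat, and to 121 RPKM in knockout chow and 102 RPKM in flox chow. All 6 past 1 RPKM were higher in knockout livers on both diets, with median log2 changes of 0.62 on the high-fat diet and 0.21 on chow. The shares of all genes that were higher were 29.9% and 45.8%. By 1.5-fold, 4 of 6 were up on the high-fat diet, where 3.20% of all genes were. On chow 0 of 6 were, where 113 of 10322 genes were. The highest sum of the MHC class II genes, like that of the macrophage markers, was in knockout high fat. As deposited, the sum of the 33 interferon-stimulated members was lowest in that group. The member sum was 362 RPKM there, against 432 RPKM in flox high fat, 367 RPKM in knockout chow and 415 RPKM in flox chow. The sum over all genes was also lowest there, at 367414 RPKM, against 461725, 461392 and 513694 RPKM in the same order. These sums were not rescaled, so the order of the member sums may depend on the scaling. Without Bst2 and Iigp1 the members' sum was highest there, at 190 RPKM. Dendritic cell markers (8 of 8 with a row, of which 1 reached 1 RPKM) summed to 3.90 RPKM in knockout high fat and 2.04 RPKM in flox high fat, and to 1.52 RPKM in knockout chow and 1.43 RPKM in flox chow. T and NK cell markers (15 of 16) summed to 9.86 RPKM in knockout high fat and 6.82 RPKM in flox high fat, and to 9.64 RPKM in knockout chow and 6.21 RPKM in flox chow, with Cd3e below 0.5 RPKM in each group. Of these 15, 1 reached 1 RPKM, namely Ccl5. It alone had 5.05 RPKM in knockout high fat, 3.19 RPKM in flox high fat, 4.71 RPKM in knockout chow and 2.45 RPKM in flox chow. Cholangiocyte markers (6 of 6) summed to 110 RPKM in knockout high fat and 23.2 RPKM in flox high fat, and to 42.9 RPKM in knockout chow and 22 RPKM in flox chow. Of 5 compared, Epcam and Spp1 rose in knockout against flox livers on the high-fat diet, where 1.07% of 10327 genes rose. Stellate cell markers (6 of 6) summed to 30.6 RPKM in knockout high fat and 16.0 RPKM in flox high fat, and to 16.6 RPKM in knockout chow and 12.6 RPKM in flox chow, and of these, Col1a1 and Col3a1 rose in the same comparison. B cell markers (5 of 5) summed to 2.44 to 3.07 RPKM and monocyte and neutrophil markers (8 of 9) to 7.18 to 10.9 RPKM over the groups. Endothelial markers (9 of 9) stayed between 95.7 and 104 RPKM in all groups.

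**Figure D5:**
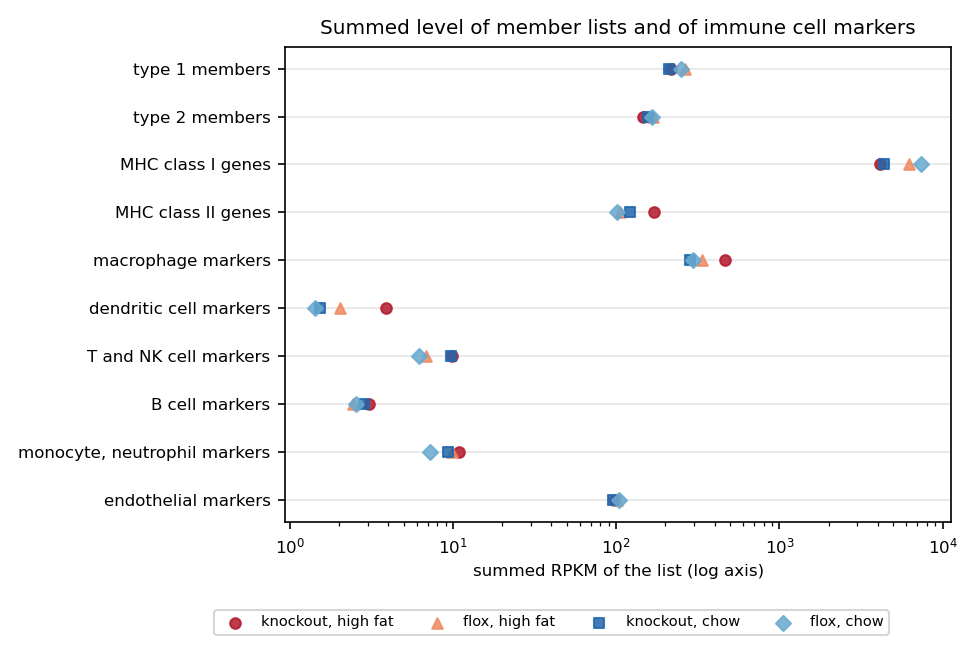
Summed RPKM on a log axis for the type 1 and type 2 members, for MHC class I and II genes and for markers of 6 cell classes, with 1 point for each of the 4 groups. As deposited and without rescaling, macrophage, dendritic cell and MHC class II sums are highest in knockout high fat, at 463, 3.90 and 170 RPKM, while the sums of type 1 and type 2 members are highest in flox high fat, at 264 and 169 RPKM. Of the dendritic cell markers 1 of 8 reached 1 RPKM, and of the T and NK cell markers 1 of 15.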

How the data were processed

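The authors deposited 1 RPKM value per gene and group, per the file headers, in 4 tables, which were assigned to groups by the part of the sample titles in their names. The submitters' processing notes list TopHat2 2.0.7, Cuffdiff 2.1.1 and the build mm10 without roles. How libraries were merged, the annotation and the strand setting are not stated. Without values per library no test was run. Rows with a repeated symbol were summed, genes reaching 1 RPKM in any group were kept (10351 genes), and a gene at exactly 0 was left out of comparisons with that group. The log2 change used a pseudocount of 1 RPKM, and the limit was 2-fold. RPKM times transcript length (GENCODE M21) was compared with 1 to 5 steps of a whole read, within 0.05 of a step; 17.8% to 21.8% of values matched, so depth is unknown. Named by rule were the members past the limit, the 4 factors and up to 4 genes of each other list with the largest change. The receptor or kinase gene with the largest rise in knockout against flox livers on the high-fat diet was left unnamed. Other members and genes were named after their values were seen. The members, lists, split by class and named genes were chosen with earlier results of these data known. The steps were tested on simulated data. Python 3.11.15, numpy 2.4.6, pandas 2.3.3 and matplotlib 3.10.9 were used. Alternatives are given in the closing section.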

Additional observations from a re-analysis of the deposited data

How the results depend on the processing

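Of 9 alternatives, a pseudocount of 5 RPKM ended the call of Usp18 (0 members past the limit); it stayed past 2-fold under the other 8. With a pseudocount of 0.1, the genes past 2-fold numbered 494 of 10327 for knockout against flox on the high-fat diet (303 before), 263 on chow (167), 305 for the diets in knockout (151), 124 in flox (66) and 240 for the interaction, the knockout change on the high-fat diet minus that on chow (127); with a pseudocount of 5 they numbered 156, 96, 85, 40 and 68, and at 1.5-fold 1190, 509, 762, 300 and 552, with 2, 0, 4, 0 and 1 members. Medians are given for members, type 1 and type 2 in that order. Rescaling to a median ratio of 0 gave 0.19, 0.20 and 0.17 for knockout against flox on the high-fat diet, 0.23, 0.36 and 0.16 for the diets in knockout, and 0.14, 0.17 and 0.086 for the interaction. Rescaling without the 50 most abundant genes gave 0.29, 0.31 and 0.26 for knockout against flox on the high-fat diet, 0.14, 0.15 and 0.11 on chow, 0.33, 0.47 and 0.27 for the diets in knockout, 0.29 and 0.30 for members and type 1 in flox, and 0.16, 0.18 and 0.10 for the interaction. It moved the median of all genes to 0.12, 0.10, 0.13, 0.09 and 0.03 in the same 5 comparisons. The rises and falls past 2-fold over all genes became 193 and 90 (111 and 192 as deposited), 33 and 104 (26 and 141), 134 and 47 (69 and 82), 31 and 35 (22 and 44), and 105 and 35 (68 and 59). A 5 RPKM filter gave -0.063 for members and -0.19 for type 2 for knockout against flox on the high-fat diet, 0.0033, 0.047 and -0.10 for the diets in knockout, 0.044 for members and -0.057 for type 2 in flox, and -0.16 for type 2 in the interaction, with 19 members left; the cause was not tested. Unfiltered data, the highest of repeated rows and zeros kept at 0 moved none of the medians of members, type 1 or type 2 by over 0.1; unfiltered, the median of all genes for knockout against flox on the high-fat diet was -0.026 (-0.13 as deposited and filtered). Leaving out a replicate was not run, since the tables hold no values per library. No paired analysis was possible because each group has 1 deposited value. Depth is unknown, and members near 1 RPKM are the least certain.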

Other observations

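Ifi27 has no row under that symbol. RefSeq gives Ifi27l1 as an older name of it, and Ifi27l1 was listed at 66.9 RPKM in knockout high fat and 53.5 RPKM in flox high fat, and at 66.1 RPKM in knockout chow and 62.5 RPKM in flox chow, with a log2 change of 0.32 for knockout against flox on the high-fat diet and 0.08 on chow. It was not counted among the members.

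Ifitm3 and Ifitm2, interferon-induced transmembrane genes whose products block virus entry, were the most abundant interferon targets looked at outside the MHC genes. Ifitm3 had 719 RPKM in knockout high fat and 775 RPKM in flox high fat, and 917 RPKM in knockout chow and 994 RPKM in flox chow. Ifitm2 had 237 RPKM in knockout high fat and 305 RPKM in flox high fat, and 334 RPKM in knockout chow and 378 RPKM in flox chow. Both were lower on the high-fat diet in each genotype, by less than 1.5-fold, the opposite of the low-level type 1 members, while Ifitm1 had 11.3 RPKM in knockout high fat and 8.31 RPKM in flox high fat, and 11.0 RPKM in knockout chow and 10.6 RPKM in flox chow.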
